A study of Homo sapiens with 22 samples.

Results

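Open chromatin was compared between EGFR-high and marker-negative cells of WM989, a melanoma cell line that carries BRAF V600E. The comparison used 6 of the 12 ATAC-seq libraries of the series, which holds 22 samples in all. They were chosen by their labels, 3 libraries of the EGFR-high sort and 3 of the sort labelled Mix. The study's methods describe the latter population as negative for both EGFR and NGFR, so it is called marker-negative here, and the label and the methods were not reconciled. No library received a drug, and all cells came from WM989 A6-G3, which is a single clone of WM989 selected through repeated single-cell bottlenecks. EGFR-high cells were taken by flow cytometry from the small top fraction of EGFR staining and were tagmented right after the sort. The other 6 ATAC libraries, 3 of EGFR/NGFR-high and 3 of NGFR-high cells, served to place the regions and are described only where they bear on them. Replicates were separate sorted populations, and whether they came from separate cultures was not given in the sources used here, so p-values measure the spread between these sorts. In the fits with limma this spread is mostly pooled over regions and is not that of a single region alone.

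ATAC-seq marks DNA that the Tn5 transposase can reach, which is mostly promoters and enhancers free of nucleosomes. In melanocytic cells SOX10 and MITF bind enhancers of pigment genes, while AP-1, a dimer of FOS and JUN proteins, and TEAD factors bind enhancers that are open in dedifferentiated, invasive states. EGFR and NGFR are receptors whose surface protein marks rare WM989 cells known as primed cells, which survive BRAF and MEK inhibition more often than the bulk of cells, called drug-susceptible.

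A few called regions are shown first as examples, chosen after their values were seen because they hold AP-1 or SOX letters, as the summit of the highest peak with 100 bases on each side, hg38, plus strand. In the 3 windows below the capitals mark the AP-1 letters TGANTCA. The first and second come from the strongest gained regions, with a peak in every EGFR-high and in no marker-negative library, in introns of IGF2BP3 (chr7:23333676-23333876), which encodes an mRNA-binding protein, and AXIN2 (chr17:65553359-65553559), which encodes an inhibitor of WNT signalling. The third lies in an intron of FGF1 (chr5:142663365-142663565), which encodes a growth factor, and was higher in EGFR-high cells. The IGF2BP3 window also holds SOX and TEAD letters, which are left in lower case.

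IGF2BP3, gained: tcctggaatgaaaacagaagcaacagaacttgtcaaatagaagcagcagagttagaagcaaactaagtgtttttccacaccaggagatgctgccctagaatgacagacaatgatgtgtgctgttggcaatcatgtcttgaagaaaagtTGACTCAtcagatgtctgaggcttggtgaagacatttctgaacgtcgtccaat

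AXIN2, gained: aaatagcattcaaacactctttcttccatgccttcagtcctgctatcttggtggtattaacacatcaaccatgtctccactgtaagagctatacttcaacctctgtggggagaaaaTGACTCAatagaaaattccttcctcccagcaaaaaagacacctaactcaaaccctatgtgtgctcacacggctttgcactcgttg

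FGF1, higher: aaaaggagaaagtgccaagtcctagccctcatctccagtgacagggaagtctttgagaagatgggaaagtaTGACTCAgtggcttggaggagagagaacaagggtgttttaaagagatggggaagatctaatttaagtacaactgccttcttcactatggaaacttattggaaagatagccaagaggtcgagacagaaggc

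In the next 3 windows the signal was lower in EGFR-high cells and the capitals mark the SOX letters ACAATG or their reverse complement CATTGT. They lie in an intron of FAM180A (chr7:135742879-135743079), in an intron of SLC45A2 (chr5:33981996-33982196), which encodes a transporter of pigment cells, and close to a start site of MITF (chr3:69936142-69936342), which encodes the master regulator of melanocytes. The falls at SLC45A2 (-0.57 on the log2 scale) and MITF (-0.51) were smaller than the median fall of all lower regions, -0.71.

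FAM180A, lower: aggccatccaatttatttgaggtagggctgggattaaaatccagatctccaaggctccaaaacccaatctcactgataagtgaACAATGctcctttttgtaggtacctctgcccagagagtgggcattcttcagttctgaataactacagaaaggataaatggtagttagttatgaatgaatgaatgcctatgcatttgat

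SLC45A2, lower: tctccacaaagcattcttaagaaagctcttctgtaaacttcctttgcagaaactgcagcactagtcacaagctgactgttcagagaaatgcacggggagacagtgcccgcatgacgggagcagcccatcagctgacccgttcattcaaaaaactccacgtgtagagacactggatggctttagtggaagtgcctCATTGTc

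MITF, lower: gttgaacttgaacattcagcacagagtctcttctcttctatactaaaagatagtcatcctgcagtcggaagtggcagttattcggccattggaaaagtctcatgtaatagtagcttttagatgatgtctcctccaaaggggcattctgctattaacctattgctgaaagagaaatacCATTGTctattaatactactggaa

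After repeated intervals had been dropped, they held between 148575 and 166985 distinct peaks, which covered 65.4 to 73.7 Mb. The median fold enrichment per library, the value in column 7 of the peak files, lay between 6.62 and 7.26 in 5 libraries and was 8.51 in marker-negative replicate 1. That library also stood apart in having 85.5% of its peaks at a −log10 q of at least 5, against 68.5% to 74.7% in the other 5. Within each library 100% of the fold enrichments were whole multiples of 1 step, which lay between 0.427 and 0.489. The lowest peaks stood 6 or 7 steps high, and the depth in reads is unknown from these files. A region was kept where at least 3 of the 12 libraries had a peak, and 144668 of the 151844 regions on chromosomes 1 to 22 and X had a peak in at least 1 of the 6 libraries.

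EGFR itself, whose protein was the basis of the sort, was the first gene to be examined. At its promoter (chr7:55018530-55019753, hg38) the fold enrichment was 14.5, 14.2 and 14.2 in EGFR-high cells and 5.38, 4.24 and 5.81 in marker-negative cells. The groups did not overlap, and every EGFR-high library stood above every marker-negative library by more than the spread within either group. After quantile normalization the log2 difference was 1.63 (SE 0.253, limma, adjusted p = 9.34e-06), a 3.09-fold difference. In steps, the peak height was 34, 30 and 29 against 12, 9 and 12. An exact permutation test of this region alone gave p = 0.1, which is the smallest that 3 against 3 allows.

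Of the 22 regions within 50 kb of EGFR or inside it, 4 were higher, 1 was gained and none was lower or lost, and 12 of the 13 regions with a peak in all 6 libraries had a positive log2 difference. Within 50 kb of all protein-coding genes, 4.05% of the regions with a peak in all 6 libraries were higher and 3.60% lower. Of all regions there, 1.52% were gained and 1.13% lost. An intronic region 22.8 kb from the nearest EGFR start (chr7:55085867-55087589) had 49.1, 52.5 and 50.4 against 41.2, 36.8 and 32.9 (log2 difference 0.59, SE 0.131, adjusted p = 0.00165). A weaker intronic region (chr7:55132614-55133560) had 7.68, 12.3 and 6.36 against 4.03, 4.24 and 5.32 (log2 difference 1.03, adjusted p = 0.00887). The 2 groups did not overlap in either region, which held on the scale of the files for 28.7% of all regions with a peak in all 6 libraries. Next to the latter lay the gained region (chr7:55133633-55134136), with 4.27, 5.20 and 4.41 in EGFR-high cells and no peak in marker-negative cells. Just past the 3′ end of the gene (chr7:55212721-55213606) the values were 46.1, 41.1 and 40.1 against 27.3, 33.9 and 35.8 (log2 difference 0.54, adjusted p = 0.0111). The call in the weaker intron region was lost without EGFR-high replicate 2 or marker-negative replicate 1, and the call past the 3′ end without EGFR-high replicate 1 or marker-negative replicate 1 and with no scaling. With the mean of the peaks of a region, only the promoter call of these 4 held.

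**Figure D1:**
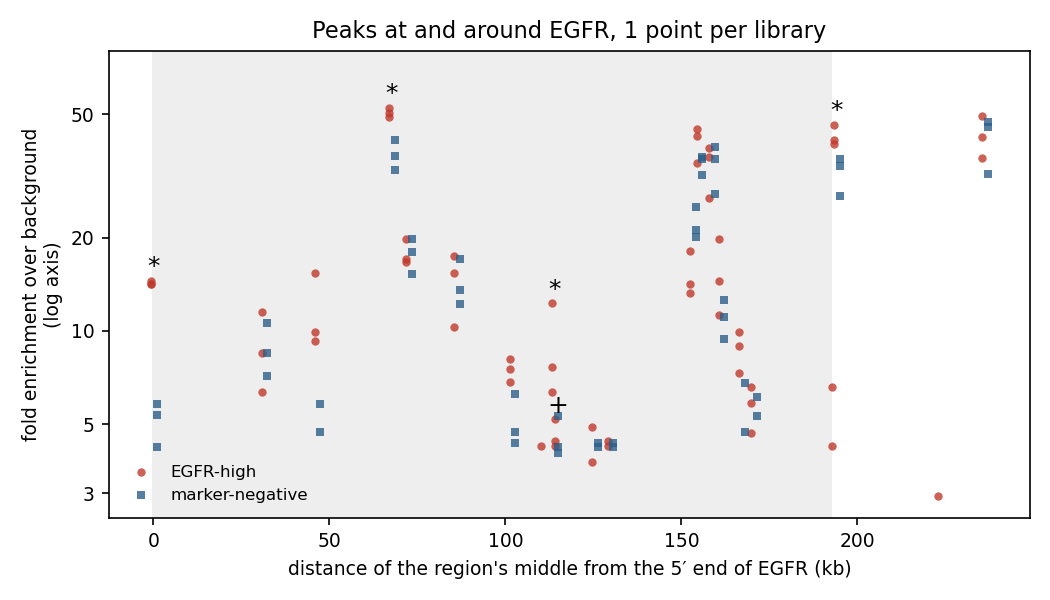
Fold enrichment (log axis) of each region with a peak in at least 1 of the 6 libraries, within 50 kb of EGFR, against the distance of the region's middle from the 5′ end of the gene in kb. Each point is 1 library, the grey band is the gene, an asterisk marks the 4 regions past the limma threshold and a plus the 1 gained region. At the promoter the 3 EGFR-high points lie near 14 and the 3 marker-negative points between 4.24 and 5.81.

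NGFR, the other sort marker, was not called. Its promoter (chr17:49496006-49497496) had 13.7, 13.7 and 13.7 in EGFR-high cells and 13.4, 12.3 and 12.6 in marker-negative cells. The log2 difference was 0.30 (SE 0.222, adjusted p = 0.471), which did not pass the threshold. None of the 11 regions in or within 50 kb of NGFR was called, and 3 of the 8 regions tested there had a positive difference. At the shares over all protein-coding genes, 4.05% higher and 3.60% lower, no call among 8 regions says little about this locus.

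Over the whole genome most regions were shared. Of the 144668 regions, 82248 (56.9%) had a peak in all 6 libraries. A gained region had a peak in all 3 EGFR-high and in no marker-negative library, and a lost region the reverse. There were 2395 gained regions (1.66% of the 144668) and 1728 lost regions (1.19%). Regions with a peak in exactly 1 library were more numerous than either class, with 6692 seen in a single EGFR-high and 4752 in a single marker-negative library. The count of gained regions rose to 4218 without EGFR-high replicate 3. The count of lost regions rose to 3778 without EGFR-high replicate 2, 3013 without EGFR-high replicate 3, 3553 without marker-negative replicate 1 and 2833 without marker-negative replicate 3, since fewer libraries then had to be with or without a peak. With only peaks of −log10 q of at least 5 there were 1575 gained and 2045 lost regions, so the balance of gained over lost regions turned with this threshold. It also turned without EGFR-high replicate 2 (3323 gained, 3778 lost), without marker-negative replicate 1 (2860 against 3553), and where a peak had to cover at least 50% of the region (2343 against 2625).

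The shared length of 2 peak lists as a fraction of their joint length, the Jaccard index, was 0.701 to 0.711 among EGFR-high libraries and 0.713 to 0.726 among marker-negative libraries. Between the groups it was 0.677 to 0.699, below every pair within a group. The mean within groups exceeded that between groups by 0.0241, with p = 0.1 in the exact two-sided permutation test, the smallest this design allows.

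Gained regions reached higher levels than lost regions. The mean fold enrichment of a gained region in the 3 EGFR-high libraries had a median of 5.43 and a highest value of 19.7, and 96 regions stood above 10. The mean of a lost region in the marker-negative libraries had a median of 5.11, and its highest value was 8.97. In all 3 libraries of the sort with the peak, 741 of the gained and 332 of the lost regions reached a −log10 q of at least 5. Most members of both classes were thus near the lower end of what was called as a peak.

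The strongest gained region, in the intron of IGF2BP3 shown above (chr7:23333567-23335502), had 26.5, 17.97 and 14.7. The gained region of AXIN2 (chr17:65553247-65554069) had 26.5, 17.97 and 11.7. In both regions EGFR-high replicate 1 was the highest, and neither had a peak in a marker-negative library. A region 46.6 kb from a start of COL1A2, a type I collagen gene (chr7:94347885-94348729), had 21.8, 17.5 and 16.6. One in an intron of DKK3, which encodes a secreted protein of the dickkopf family (chr11:11968391-11969249), had 19.2, 18.9 and 14.2. One in an intron of KALRN, which encodes a guanine nucleotide exchange factor (chr3:124107145-124108193), had 16.2, 17.5 and 15.7. The other 5 of the 10 strongest lay nearest to ZFP36L2, TSPAN9, GALNT12, STK32B and MRPL32, and all 10 lay in introns or between genes. Across the 10 regions the EGFR-high values ran from 11.7 to 26.5.

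The values of the strongest lost regions were mostly below those of the strongest gained regions, and the ranges met. The region nearest to GPR37, which encodes an orphan receptor (chr7:124724912-124725260), had 12.1, 6.60 and 8.23 in marker-negative cells. A region in an intron of GSK3B, which encodes a kinase of WNT signalling (chr3:119973321-119973651), had 7.62, 8.95 and 8.71. The region in an intron of FBXL17 (chr5:108345630-108345882), a gene for an F-box protein, had 8.96, 9.43 and 7.74. The other 7 were named by IPMK, TMEM135, CHGB, DGLUCY, COX7C, SLC39A10 and NMB, and the 10 regions together ran from 4.84 to 12.1.

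Signal was then compared in the 82248 regions with a peak in all 6 libraries. The fold enrichment of the highest peak in a region was set on the log2 scale without a pseudocount, quantile-normalized and fitted with limma. At an adjusted p under 0.05, 3570 regions (4.34%) were higher and 3065 (3.73%) were lower in EGFR-high cells. The rise was over 1 on the log2 scale in 1062 of the higher regions, and the fall was over 1 in 238 of the lower regions. The largest rise was 2.52 and the largest fall was -1.71, while the median over all regions tested was -0.0050. After normalization the values of the groups did not overlap in 3429 of the higher and 2902 of the lower regions, and in 19451 (23.6%) of all 82248 regions. On the scale of the files, without normalization, the groups did not overlap in 2996 and 3019 of them, and in 23600 (28.7%) of all 82248.

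The balance of higher and lower regions depended on the scaling. With median centring there were 4683 higher and 2446 lower regions, and with no scaling 1990 and 8285, where the median log2 difference of all regions was -0.16. All differences below are relative to the quantile-normalized scale. Without EGFR-high replicate 1 the counts fell to 1616 higher and 1433 lower regions, without marker-negative replicate 2 to 2291 and 1412, and without marker-negative replicate 1 to 2452 and 1456. Taking the mean of the peaks of a region in place of the highest left 520 higher and 106 lower regions.

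**Figure D2:**
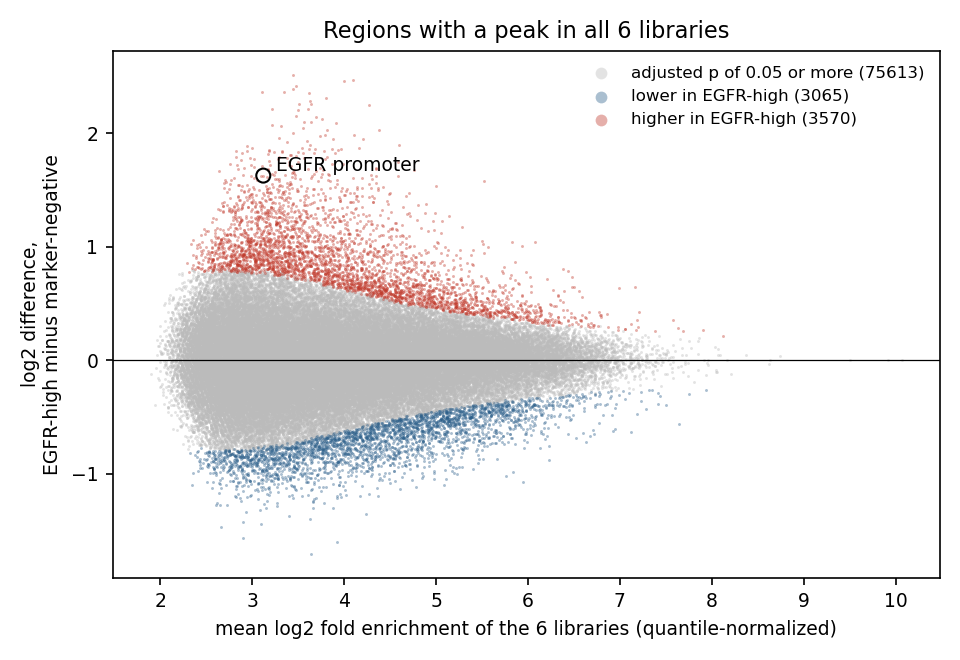
Log2 difference in fold enrichment, EGFR-high minus marker-negative, against the mean log2 fold enrichment of the 6 libraries, for the 82248 regions with a peak in all 6. Each point is a region, red for the 3570 higher and blue for the 3065 lower at an adjusted p under 0.05. The rises extend to 2.52 and the falls to -1.71, and the circle marks the EGFR promoter at 1.63.

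The 10 largest rises had log2 differences between 2.29 and 2.52. The region with the largest rise lay 12.6 kb from a start of TNN, which encodes the matrix protein tenascin N (chr1:175054670-175055771), with 26.5, 25.1 and 22.5 in EGFR-high cells and 4.93, 3.30 and 6.29 in marker-negative cells (log2 difference 2.52, SE 0.247, adjusted p = 2.28e-10). A region between genes 248 kb from FOXP1, a forkhead factor gene (chr3:70815822-70816976), had 51.6, 31.7 and 34.3 against 5.82, 5.66 and 13.6. The groups did not overlap in either, and the EGFR-high values of the latter spread more widely. The region 25.4 kb from SNED1, which encodes a matrix protein (chr2:240972709-240973792, in an intron of CROCC2), had 41.8, 33.1 and 32.8 against 6.27, 9.43 and 6.29. In an intron of SORL1, which encodes a sorting receptor (chr11:121523897-121524714), the values were 19.6, 30.7 and 21.5 against 4.03, 4.71 and 6.29. The only promoter among the 10 was that of PTK2, which encodes focal adhesion kinase (chr8:140717997-140719077), with 32.4, 29.3 and 26.9 against 5.38, 5.66 and 9.20. The remaining 5 were named by SNTB1, ATXN1, C1QTNF3, NMNAT2 and KMT2E. All 10 calls held under every alternative of the fit that gave a value.

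The 10 largest falls had log2 differences between -1.34 and -1.71. In an intron of RASAL2, which encodes a GTPase-activating protein of RAS (chr1:178398605-178399294), the values were 4.70, 7.56 and 7.83 in EGFR-high cells and 24.2, 25.9 and 21.8 in marker-negative cells (log2 difference -1.71, SE 0.235, adjusted p = 8.13e-07). In an intron of AUTS2, which encodes a nuclear protein of neural development (chr7:70016332-70016864), they were 11.5, 10.9 and 10.8 against 32.3, 32.5 and 31.0. The 3 libraries of each group lay close together there, and the groups stood far apart. In the intron of FAM180A shown above (chr7:135742451-135743344) they were 4.70, 2.84 and 3.43 against 11.2, 12.3 and 10.2. In an exon of PGPEP1, 5.92 kb from GDF15, a stress-induced cytokine gene (chr19:18368562-18369200), they were 4.70, 8.51 and 9.30 against 24.6, 20.7 and 19.4. The other 6 were named by PPP1R3B, SLC26A5, SNX7, NDC1, TMEM263 and SLC7A1. The calls of TMEM263 and SLC7A1 were lost where the mean of the peaks of a region was used.

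Both kinds of difference lay mostly outside promoters, a promoter being a region within 1 kb of a protein-coding start. Promoters made up 3.84% of gained, 4.46% of lost, 10.1% of higher and 4.54% of lower regions, against 13.2% of the 144668 regions and 18.3% of the 82248 from which higher and lower regions came. Introns held 45.1% of gained, 43.8% of lost, 42.8% of higher and 47.7% of lower regions, against 39.9%. The median distance to the nearest start was 41.0 kb for gained, 36.2 kb for lost, 37.6 kb for higher and 31.4 kb for lower regions, against 25.02 kb for the 144668 and 21.5 kb for the 82248 regions. Gained regions were 451 bp wide at the median and lost regions 285 bp, against 488 bp for all. These are widths of regions merged over all 12 libraries, so peaks of the other sorts count in them. They are not widths of the peaks of the 2 sorts compared. Of the 15022 promoter regions tested, 359 (2.39%) were higher and 139 (0.925%) were lower, with a median log2 difference of 0.06.

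Chromosome 4 stood apart from the others. Of its 3678 regions tested, 8.62% were higher and 1.11% were lower, and its median log2 difference was 0.14, while the other chromosomes had medians between -0.08 and 0.03. The median log2 signal of chromosome 4 was 3.73, 3.69 and 3.67 in the EGFR-high libraries and 3.59, 3.59 and 3.55 in the marker-negative libraries, so that the groups did not overlap. The medians of the groups did not overlap on 4 other chromosomes either, with EGFR-high above on 7, which holds EGFR, and 18, and below on 1 and 22. Of the 6704 regions of chromosome 4, 176 (2.63%) were gained and 54 (0.805%) lost, against 1.66% and 1.19% over all regions. A change in copy number was not tested. Without chromosome 4 there were 3253 higher and 3024 lower regions. With each chromosome centred on its own median, an alternative chosen after seeing the data, there were 3427 and 3024.

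**Figure D3:**
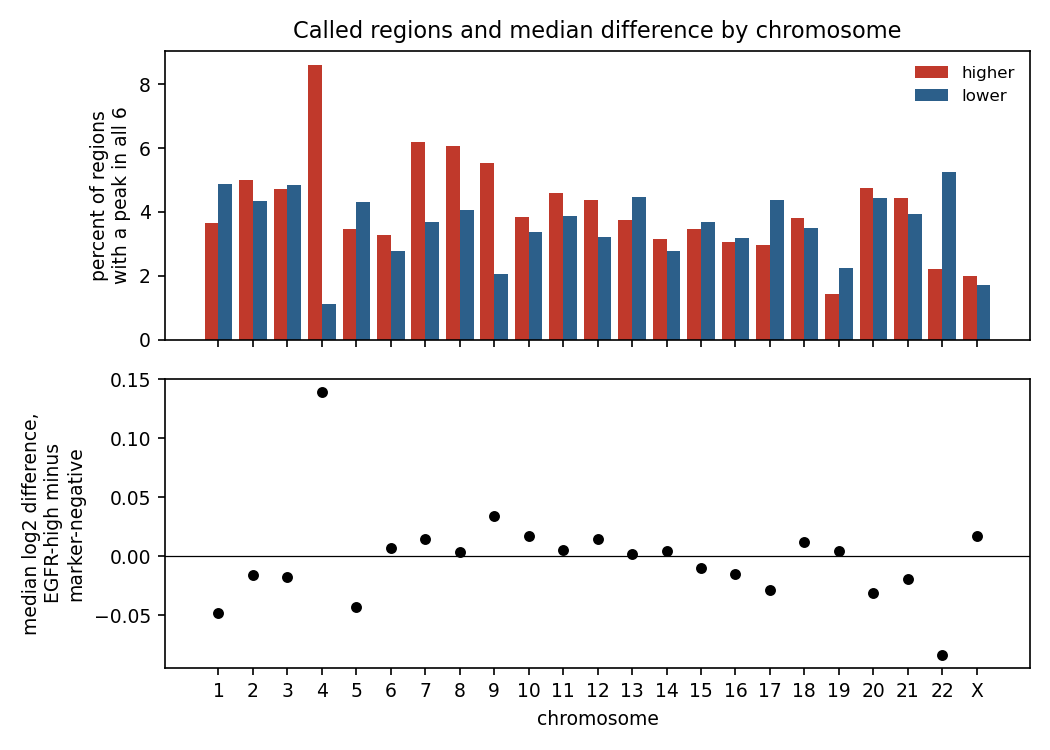
Top, percent of the regions with a peak in all 6 libraries that were higher (red) or lower (blue) in EGFR-high cells on each chromosome. Bottom, the median log2 difference of all those regions. Chromosome 4 has 8.62% higher and 1.11% lower regions and a median of 0.14, the highest of the 23 chromosomes.

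The letters of 12 short motifs were searched on both strands in the summit and 100 bases on each side. The AP-1 letters TGANTCA were in 33.5% of gained regions (95% Wilson interval 31.7 to 35.4) and 33.7% of higher regions (32.2 to 35.3), against 12.4% of lost (10.9 to 14.0), 14.0% of lower (12.8 to 15.3) and 17.3% of all regions. The intervals cover counting error only. Among the 82248 regions from which higher and lower ones came, AP-1 letters were in 16.7%, SOX letters in 14.0%, TEAD letters in 14.8% and the E-box below in 8.88%. Across all settings of the fit, the share in higher regions ran from 31.5% to 39.6% and that in lower regions from 8.49% to 14.97%. Outside promoters it was 35.4% in higher, 14.0% in lower and 18.9% in all regions. None of the 10 largest rises had these letters in its window, while 3 of the 10 strongest gained regions had them.

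The SOX letters ACAATG went the other way. They were in 26.6% of lower regions (25.1 to 28.2) and 20.4% of lost regions (18.6 to 22.4), against 10.2% of higher (9.22 to 11.2), 9.60% of gained (8.49 to 10.8) and 14.2% of all regions. The share in lower regions ran from 23.2% to 28.6% across the settings of the fit. Of the 10 largest falls 4 had SOX letters in the window, and of the 10 largest rises 2 had them. Regions with the AP-1 letters and no SOX letters made up 30.5% of higher and 10.4% of lower regions, and the reverse made up 6.97% of higher and 22.97% of lower regions.

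The TEAD letters GGAATG were in 21.1% of higher and 20% of gained regions, against 15.4% of lower, 13.1% of lost and 15.4% of all regions. The NFI half-site TTGGCA was in 16.9% of gained and 15.2% of higher regions, against 9.27% of lower and 11.1% of all. The E-box CACCTG, which ZEB and SNAI repressors bind, was in 2.67% of gained and 2.38% of higher regions, against 11.2% of lost, 7.67% of lower and 8.96% of all regions. RUNX letters TGTGGT were in 27.2% of lower, 23.9% of higher and 20.8% of all regions. The FOX letters TGTTTAC were in 4.34% of gained, 3.45% of higher, 2.25% of lower and 2.78% of all regions. The CTCF core AGGGGGC was rarer in every class, at 2.34% of gained, 3.17% of higher, 3.75% of lower and 3.76% of lost regions, than in all regions, at 6.38%. The M-box TCACGTG, which MITF binds, was in 0.501% of gained, 1.62% of lost, 1.204% of higher, 1.37% of lower and 1.54% of all regions. The TFAP2 letters GCCNNNGGC were in 6.51% of gained, 4.34% of lost, 9.92% of higher, 6.59% of lower and 8.84% of all regions. In the same order the ETS letters CCGGAAG were in 0.543%, 0.694%, 1.46%, 2.15% and 2.29%, and the CRE letters TGACGTCA in 0.0418%, 0.231%, 0.224%, 0.196% and 0.357%. In the 82248 regions from which higher and lower ones came the shares were 10.7% for NFI, 20.8% for RUNX, 2.57% for FOX, 7.90% for CTCF, 1.78% for the M-box, 10.5% for TFAP2, 3.36% for ETS and 0.4997% for CRE letters. The TFAP2 interval of higher regions (8.98 to 10.9) holds the value of these regions. Outside promoters ETS letters were in 2.08% of lower and 0.997% of higher regions, against 1.51% of the 82248 regions. TFAP2 letters were there in 8.32% of higher and 6.36% of lower regions, against 7.84%. The order thus turned for ETS in lower and TFAP2 in higher regions, and not for ETS in higher and TFAP2 in lower regions. The median GC content of the windows was 43.3% in gained, 44.8% in lost, 45.3% in higher and 46.3% in lower regions, against 46.3% in all and 47.8% in the 82248 regions, and its part in these shares was not tested. A match of letters is a description of the sequence and not of a bound factor.

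**Figure D4:**
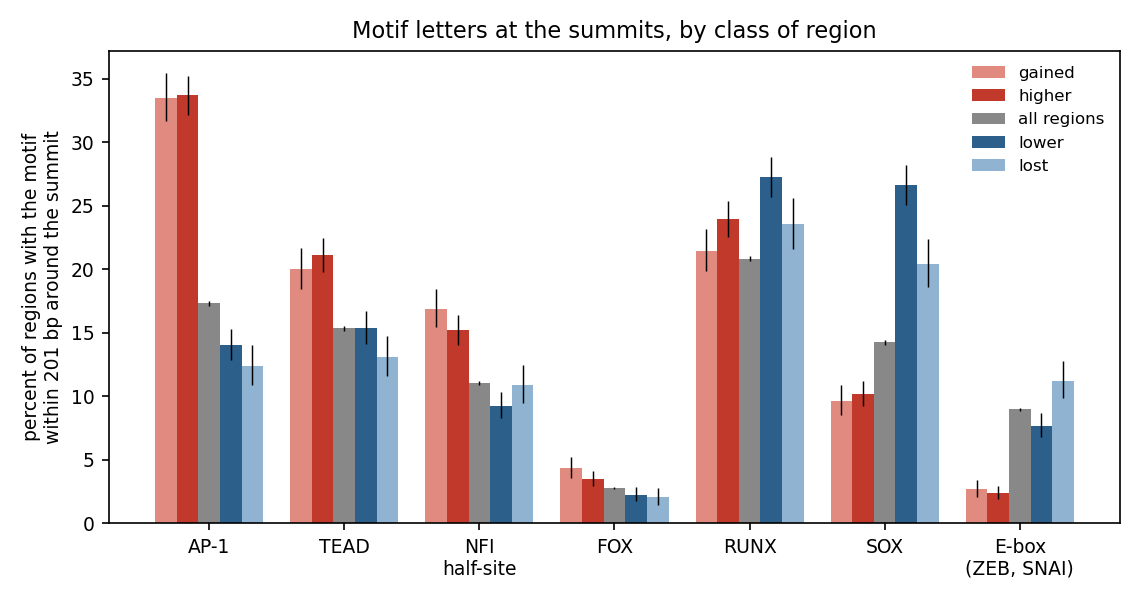
Percent of regions whose summit window, 100 bases on each side, holds the letters of 7 motifs, for gained, higher, all, lower and lost regions. Bars start at 0 and error bars are 95% Wilson intervals. AP-1 letters are at 33.5% and 33.7% in gained and higher regions, and SOX letters at 26.6% and 20.4% in lower and lost regions.

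Genes of the lists below were examined at their starts, with the strongest region within 1 kb of any annotated start of the gene, those of non-coding transcripts included. This start region is wider in scope than the promoters above, which used coding starts, so each list was counted again with coding starts only, an alternative chosen after seeing the data. Of 26 genes of the primed state, 25 had a start region and 23 had a peak there in all 6 libraries, 5 of which were higher and none lower, where 2.39% of all promoters at coding starts were higher and 0.925% lower. The median log2 difference of the 23 was 0.22. With coding starts only, 4 of 22 were higher, since ALOX5AP had no region there, and the median was 0.24. At AXL, a receptor tyrosine kinase (chr19:41225392-41227291), the fold enrichment was 20.5, 16.5 and 15.7 against 8.06, 7.07 and 12.6 (log2 difference 1.14, SE 0.239, adjusted p = 0.000875), and the call was lost with the mean of the peaks of a region. At CCN1, a secreted matrix protein and YAP target (chr1:85581392-85582105), it was 9.82, 9.93 and 10.8 against 6.27, 2.83 and 4.84 (log2 difference 1.33, adjusted p = 0.000578). The groups did not overlap at either gene, and CCN1 was low in every marker-negative library. FN1, fibronectin (chr2:215435040-215437677), had 35.0, 32.6 and 32.3 against 23.3, 23.1 and 25.2 (log2 difference 0.64, adjusted p = 0.00537), and its call was lost without EGFR-high replicate 1. ALOX5AP, which encodes a protein of leukotriene synthesis, had in an intron 8.25 kb from its coding start a log2 difference of 0.86 (adjusted p = 0.00786), and its call was lost without EGFR-high replicate 2 or marker-negative replicate 1. PDGFA, a growth factor gene, had 0.70 (adjusted p = 0.0228). The PDGFA groups overlapped, and its call was lost without EGFR-high replicate 1 or 2 or marker-negative replicate 1 or 2. NT5E, which encodes the surface enzyme CD73, had 34.1, 41.1 and 33.3 against 31.4, 30.2 and 48.4 and did not pass (log2 difference 0.15, adjusted p = 0.617). JUN had 80.7, 94.6 and 82.2 against 101.2, 92.8 and 88.1 and did not pass either. WNT5A and ANKRD1 had no peak at the region chosen in any of the 6 libraries, and IL1B had no region near a start.

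Around the same genes, within 50 kb, 26 of 237 regions tested were higher (11.0%) and 2 were lower (0.844%), and 10 of 387 were gained and 2 lost. Over all protein-coding genes the shares were 4.05% higher, 3.60% lower, 1.52% gained and 1.13% lost. The strongest rise among them lay in an intron of TNC, which encodes tenascin C (chr9:115106427-115107363), with 18.4, 19.9 and 20.1 against 4.93, 6.60 and 8.71 (log2 difference 1.74). TNC had 4 higher regions in all, 1 of them at another start, while its promoter region with the highest signal had 25.2, 31.2 and 24.5 against 21.1, 24.5 and 30.5. The FGF1 intron region shown above (chr5:142663148-142663987) had 11.95, 10.9 and 10.3 against 5.38, 5.18 and 4.84 (log2 difference 1.25, adjusted p = 0.000693). Past the 3′ end of CAV1, which encodes caveolin 1, a pair of regions between genes was higher, the first (chr7:116576466-116577858) with 20.9, 24.1 and 18.6 against 10.8, 12.7 and 13.1, and the second (chr7:116582082-116583526) with 21.3, 15.1 and 18.6 against 11.2, 8.95 and 8.71. The CAV1 promoter had 61.0, 70.0 and 73.4 against 82.4, 77.3 and 65.3 and did not pass the threshold.

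Of the 24 melanocyte genes, 23 had a start region with a peak in all 6 libraries, of which 1 was higher and none lower, with a median log2 difference of 0.08. With coding starts only, 1 of 22 was higher and none lower, a number near the background of 2.39% higher and 0.925% lower promoters, so nothing is read from it. This list marks the melanocytic identity of the line, and these regions were open in both sorts. SOX10, the neural crest factor that directs melanocyte genes, had 27.7, 28.4 and 26.4 against 23.3, 29.2 and 35.3 (adjusted p = 0.828). The MITF promoter region with the highest signal had 263, 292 and 244 against 283, 290 and 283 (adjusted p = 0.782). PMEL, a melanosome protein gene, had 136, 166 and 148 against 134, 145 and 151. None of these 3 regions passed the threshold. MITF has more than 1 start, and a weaker region at another of them was lower, as given below. The higher promoter was that of BCL2A1, an inhibitor of cell death, with 23.05, 24.6 and 24.96 against 21.95, 15.6 and 17.4 (log2 difference 0.59, adjusted p = 0.0317), and its call was lost whenever a library other than marker-negative replicate 1 was left out.

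Within 50 kb of the 24 melanocyte genes, 17 of 290 regions tested were higher (5.86%) and 12 were lower (4.14%), and 11 of 532 were gained and 9 lost, against 4.05% and 3.60% higher and lower over all protein-coding genes. The lower share was near that background, so the regions named next are single examples. In an intron of PMEL (chr12:55970121-55971740) the values were 33.7, 41.6 and 44.1 in EGFR-high cells and 73.9, 69.3 and 70.7 in marker-negative cells (log2 difference -0.74, SE 0.121, adjusted p = 2.52e-05). At the MITF start whose window is shown above (chr3:69935389-69937249) they were 54.6, 57.7 and 66.6 against 89.2, 84.8 and 98.7 (log2 difference -0.51, adjusted p = 0.00100). In the SLC45A2 intron (chr5:33981321-33982476) they were 23.9, 24.1 and 27.4 against 45.7, 45.2 and 33.9 (log2 difference -0.57, adjusted p = 0.0122). In all 3 the groups did not overlap, which held on the scale of the files for 98.5% of lower and 28.7% of all regions tested. SOX letters were in all 3 windows, against 26.6% of lower regions. The MITF and SLC45A2 windows were chosen because they hold these letters, so nothing is read from that. At MITF 3 regions were higher and 2 lower of 47 tested, and 2 were gained and 2 lost among its 117. Over all protein-coding genes 1.52% of regions were gained and 1.13% lost. These few calls were near the background, so nothing is read from their number. A gained region in an intron of MITF (chr3:69848073-69848908) had 13.7, 11.8 and 9.79 in EGFR-high cells and no peak in marker-negative cells. Next to EDNRB, an endothelin receptor gene of melanocytes (chr13:77980454-77981046), a region had 12.8, 14.2 and 10.3 against 4.48, 3.30 and 3.87 (log2 difference 1.79).

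AP-1 factor genes were open in both sorts. All 12 start regions were tested and none was called, with coding starts only as well, and the median log2 difference was 0.05. At the background of 2.39% higher and 0.925% lower promoters, 0 calls among 12 say nothing about this list. FOSL1 had 38.4, 46.3 and 35.7 against 39.9, 51.4 and 49.4, and FOSL2 had 84.9, 94.6 and 98.9 against 84.7, 83.4 and 95.4. Between ATF3 and BATF3, both genes of the AP-1 family, a region with AP-1 letters (chr1:212667142-212668175) had a log2 difference of 1.58. It is a single example, since within 50 kb of the list 4 of 103 regions tested were higher (3.88%) and none lower, near or below the 4.05% and 3.60% over all protein-coding genes. Of the TEAD and YAP list, 3 of 12 start regions tested were higher, those of CCN1, AXL and TEAD4, and with coding starts only, which gave other regions for TEAD1, YAP1 and AMOTL2, it was the same 3 of 12. TEAD4 encodes a TEAD factor and had 40.1, 56.7 and 32.8 against 37.6, 24.5 and 38.7, groups that overlap, and its call was lost without EGFR-high replicate 1 or 2 or marker-negative replicate 2.

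Pathway lists around the receptors gave 1 or a few calls each. Of all promoters at coding starts 2.39% were higher and 0.925% lower, so 1 call in a list says little about that list. In the TGF-beta list 1 of 19 start regions was higher, that of TGFBI, a matrix protein induced by TGF-beta (chr5:136058042-136059096), with 9.39, 12.3 and 9.79 against 4.93, 4.71 and 5.32 (log2 difference 1.22, adjusted p = 0.000995). Within 50 kb of that list 13 of 196 regions were higher (6.63%) and 8 lower (4.08%), against 4.05% and 3.60% over all protein-coding genes. LTBP1, which encodes a protein that stores TGF-beta in the matrix, had 4 higher regions of 24 tested, and 2 gained and 1 lost region of 38, and the intron region with the largest rise (chr2:33210592-33211029) had 12.4, 12.3 and 10.8 against 4.48, 3.77 and 5.32. SMAD3, a signal transducer of the pathway, had 3 gained regions of 24 and no other call. In the list of ERBB receptors, ligands and regulators EGFR was the only call among 15 start regions tested, and also among the 15 with coding starts only. Within 50 kb of that list 8 of 213 regions tested were higher and 8 lower (3.76% each), near the background, and 11 regions were gained (2.81% of all regions there), where 1.52% were gained over all protein-coding genes. NRG1, an ERBB ligand gene, held 6 of these 11 gained regions, and it had 1 lower region among its 58. Of 13 start regions of other receptor tyrosine kinases tested, with either kind of start, those of AXL, PDGFRB and DDR2 were higher, and the calls of PDGFRB (log2 difference 0.54) and DDR2 (0.49) were lost whichever library was left out. AXL is the same call as in the primed-state list and the TEAD and YAP list.

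In the remaining lists single start regions passed the threshold and none was lower. FN1 was the 1 higher among 11 tested genes of EMT factors and cadherins, or 10 with coding starts only. RXRG, a nuclear receptor gene, was the 1 of 9 neural crest genes (log2 difference 0.49), and its call was lost whichever library was left out. NFKB1, an NF-kappa B subunit gene on chromosome 4, was the 1 of 10 inflammatory genes (0.60). GAPDH was the 1 of 10 housekeeping genes (0.28), and the median of that list was 0.10. Both calls were lost without EGFR-high replicate 1 or 3 or marker-negative replicate 1 or 2. Of 13 markers of leukocytes, epithelium, endothelium and fibroblasts, 4 (PTPRC, CD3E, KRT5 and PECAM1) had no region near a start, and COL1A2 was the only higher one among 7 tested (0.63), or 6 with coding starts only, a call lost without EGFR-high replicate 1 or 3 or marker-negative replicate 1. With the mean of the peaks of a region the COL1A2 difference turned to -0.24. The share of promoters at coding starts called higher over all genes was 2.39%. Besides EGFR there were 14 start-region calls in all lists, and many of them depended on the setting. With the mean of the peaks of a region CCN1 and TGFBI kept their calls, 11 genes lost theirs and COL1A2 turned. With no scaling 9 calls were lost and those of AXL, FN1, ALOX5AP, CCN1 and TGFBI were kept, and with missing values filled 4 were lost (TEAD4, PDGFRB, GAPDH and COL1A2).

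Some genes gathered many called regions, counted by the nearest start and named after their values were seen, where 4.34% of regions tested were higher and 3.73% lower over all genes, and 1.66% of all regions were gained and 1.19% lost. Higher and lower regions are counted here among those tested, and gained and lost ones among all regions of the gene. TNS3, a focal adhesion gene, had 15 higher regions of 56 and 1 gained region of 82, and no lower or lost region. HAS2, the hyaluronan synthase gene, had 12 higher regions of 41 and 3 gained of 75 beside 1 lower and 1 lost, and TNC had 9 higher of 24 and 1 gained of 35. CADPS, a gene of vesicle release, had 14 lower regions of 65 and 2 lost of 141, next to 2 higher and 2 gained. IGSF11, an adhesion gene, had 5 lower regions of 27 and 3 lost of 58 and neither a higher nor a gained one. FRMD4B had 11 lower regions of 66 beside 4 higher and 1 gained. Other genes with many calls were mixed, such as MAGI1, with 9 higher and 7 lower regions of 72 and 2 gained and 3 lost of 146, and FOXP1, with 10 higher and 6 lower of 67 and 2 gained and 1 lost of 158.

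The gained and lost regions were then looked up in the 6 libraries whose peaks did not enter the rule for gained and lost. These libraries were not independent of the regions, since their peaks helped to set the extent of the merged regions. With regions merged over the 6 compared libraries there were 2644 gained and 1841 lost regions, and no lookup was made for those. Of the gained regions, 92.9%, 82.4% and 79.0% had a peak in the 3 EGFR/NGFR-high libraries and 83.1%, 70.2% and 74.2% in the 3 NGFR-high libraries. Of the lost regions, 49.7%, 38.7% and 36.8% had one in the EGFR/NGFR-high libraries and 35.1%, 33.3% and 49.4% in the NGFR-high libraries. For regions with a peak in any 3 of the 6 libraries compared, a set that includes the gained and lost regions, the same shares were 67.9%, 55.9% and 49.5%, and 55.0%, 47.9% and 56.8%. The gained regions were thus above and the lost regions below this background in every one of the 6 libraries. Over all 144668 regions, 56.9% of which had a peak in all 6 compared libraries, the shares were 88.8%, 83.0% and 79.2%, and 82.2%, 79.2% and 83.2%. The lost regions were below these shares in every library, while the gained regions were above them in some libraries and below them in others. The shares of lost regions depended on the peaks used. With the 50000 highest peaks of each library they were 18.8%, 22.99% and 24.5% in the EGFR/NGFR-high and 19.5%, 26.2% and 33.4% in the NGFR-high libraries, and with a −log10 q of at least 5 they ran from 35.1% to 60.4%. Gained regions had a peak there in 69.6% to 85.6% with the 50000 highest peaks, against 85.5% to 86.5% of all regions of that setting. With a −log10 q of at least 5 they had one in 74.3% to 96.5%, against 82.3% to 92.7%. The background of regions with a peak in any 3 libraries was not computed with those peaks. Of the gained regions, 1302 (54.4%) had a peak in all 6 of these libraries and 73 in none, while 109 of the lost regions had one in all 6 and 294 in none.

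**Figure D5:**
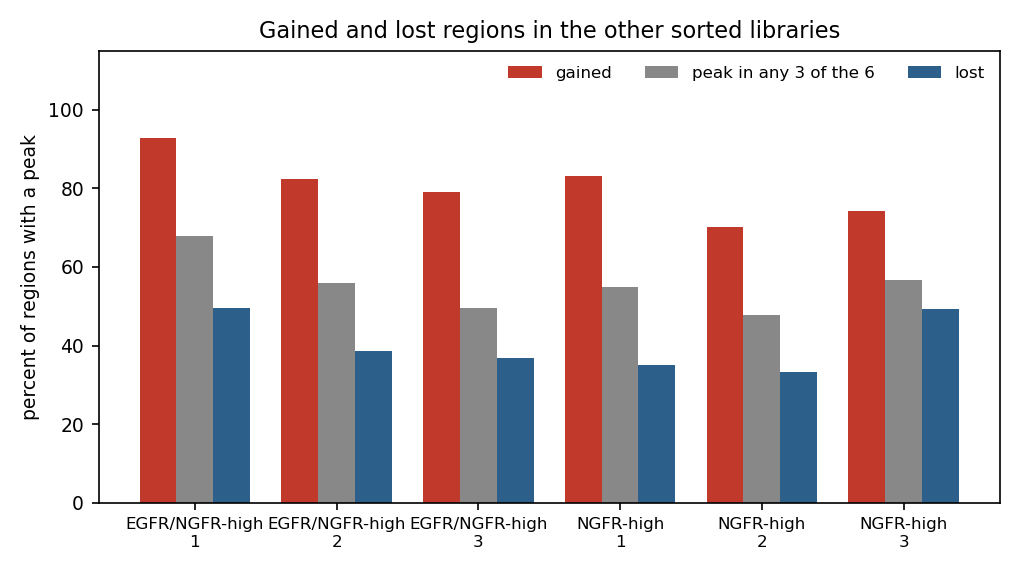
Percent of the gained (red) and lost (blue) regions with a peak in each EGFR/NGFR-high and NGFR-high library, beside regions with a peak in any 3 of the 6 libraries compared (grey). The gained regions reach 70.2% to 92.9% and the lost regions 33.3% to 49.7%.

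The signal of called regions in the other sorts was as follows. In the 3570 higher regions the median fold enrichment was 20.9, 19.9 and 18.1 in EGFR-high, 11.6, 11.3 and 11.6 in marker-negative, 29.2, 22.2 and 20.8 in EGFR/NGFR-high and 24.7, 21.0 and 20.2 in NGFR-high libraries. In the 3065 lower regions it was 14.1, 17.0 and 15.7, then 29.6, 28.8 and 27.1, then 19.9, 17.96 and 17.9, then 17.1, 18.8 and 20.2 in the same order of sorts. In all 82248 regions it was 12.8 to 14.2 in EGFR-high and 15.1 to 15.7 in marker-negative libraries. Where the other sorts had a peak in these regions, it was 18.2, 15.1 and 14.9 in EGFR/NGFR-high libraries. In NGFR-high libraries it was 16.3, 15.7 and 15.98. EGFR/NGFR-high replicate 1 thus had the highest level in all regions as well as in the higher regions. These are levels on the scale of the files, and all sorts would be set against the same marker-negative libraries, so no test is given.

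Expression near the regions came from a separate scRNA-seq experiment on untreated WM989 cells, in which the authors assigned each cell to the primed state or to a second state, read here as drug-susceptible. Per the study's methods, that experiment joined a well of mixed cells with a well sorted as EGFR/NGFR-high, both grown for several doublings before sequencing. Part of its cells had thus been sorted on EGFR and NGFR. UMI counts were summed to CPM over 2843 primed and 9688 drug-susceptible cells, and a gene was kept where it reached 20 CPM in the primed or the drug-susceptible sum. The nearest genes of gained regions, 686 in number, had a median log2 ratio of primed to drug-susceptible CPM of 0.19, and 23.2% of them were above 2-fold. The 955 nearest genes of higher regions had a median of 0.19 and 23.4% above 2-fold. The 492 genes of lost regions had -0.02 and 12.4%, and the 846 genes of lower regions -0.10 and 11.7%. For the nearest genes of all regions the median was -0.0026 and the share 10.5%. The share with a ratio below 0.5 was 15.2% for genes of lower, 9.53% for genes of higher, 10.8% for genes of gained and 11.0% for genes of lost regions, against 6.57% for those of all regions. This share thus hardly differed between genes of gained and of lost regions. In the 2 replicates of that experiment the medians were 0.15 and 0.16 for higher and -0.16 and -0.13 for lower regions. Cells are not replicates and a gene can be nearest to regions of several classes, so these ratios carry no test.

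EGFR itself had 48.1 CPM in primed and 3.37 in drug-susceptible cells, and AXL had 42.3 and 0.469. NGFR, with no called region, had 30.1 and 1.098. At melanocyte genes whose promoters were not called, SOX10 had 7.09 CPM in primed and 130 in drug-susceptible cells and PMEL 66.8 and 2158. Genes with many lower regions went both ways. IGSF11 had 0.760 CPM in primed and 21.2 in drug-susceptible cells and FRMD4B 24.9 and 268, while CADPS had 71.8 and 26.2. Genes with many higher or gained regions went both ways too. TNS3 had 75.1 CPM in primed and 45.1 in drug-susceptible cells, HAS2 12.4 and 7.11, and TNC 44.7 and 6.02. MYC had 43.2 and 173, with 9 higher and 1 lower region of 37 tested and 3 gained of 67. SOX5 had 12.3 and 37.6, with 5 higher and 1 lower of 43 and 5 gained and 2 lost of 92. Over all genes 4.34% of regions tested were higher and 3.73% lower, and 1.66% of all regions were gained and 1.19% lost. The states were assigned from RNA and are not the sorts compared here, but part of these cells descended from an EGFR/NGFR-high sort. The EGFR and NGFR values are therefore not free of sorting on these markers.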

How the data were processed

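Per the study's methods the authors aligned paired-end ATAC-seq reads to hg38 with Bowtie2 2.3.4.1, filtered them with SAMtools 1.1, removed duplicates, inferred Tn5 insertions and called peaks in each library with MACS2 2.1.1.20160309. Options of the caller were not given in the sources used here. The authors deposited peak lists with a fold enrichment, a ratio over background, and a −log10 of the q-value. The scRNA-seq matrix that the authors deposited holds UMI counts from Cell Ranger, and these were summed over cells and scaled to CPM here. Per the study's methods the authors removed likely doublets by a high number of genes per cell, and no doublet caller was run here.

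An interval listed once per summit was kept once with its highest value. Intervals of the 12 libraries on chromosomes 1 to 22 and X that shared at least 1 bp were merged, and regions with a peak in at least 3 libraries were kept. Signal was tested with limma 3.58.1 (R 4.3.3, eBayes with trend, two-sided, Benjamini-Hochberg, threshold 0.05) on log2 of the highest fold enrichment, quantile-normalized, in regions with a peak in all 6 libraries, with 4 residual degrees of freedom. The prior of limma added 51.4 degrees of freedom, so the spread used for a region came mostly from other regions of like level. In simulated data for this comparison with 82248 regions, the fit recovered 71 of 100 regions changed 2-fold and 100 of 100 changed 3-fold, with 7 false calls. The simulated noise was independent between libraries and between regions, and its spread depended on the signal level only. These counts therefore do not give the error rate of the fit on the real libraries. Regions were placed on GENCODE 44 protein-coding genes (hg38) and named by the nearest coding start. Expression was matched by symbol for 18661 of 19962 protein-coding symbols.

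Named regions are the strongest within 1 kb of any annotated start of each listed gene, the 10 at each end of the fit, the 10 strongest gained and lost, and all calls around EGFR and NGFR. The members and gene lists were chosen with earlier results of these data known. Alternatives covered the scaling, the peak threshold, the merging, the pseudocount, missing values, the replicate block and leaving out each library. Windows that overlap exons were not printed. Python 3.11.15, pandas 2.3.3, scipy 1.17.1 and pysam 0.24.0 were used.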

Additional observations from a re-analysis of the deposited data

How the results depend on the processing

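Leaving out 1 library at a time gave 2860 to 4218 gained, 2425 to 3778 lost, 1616 to 3207 higher and 1412 to 2830 lower regions. With peaks of −log10 q of at least 5 there were 1575 gained regions, and with the 50000 highest peaks 1077 gained and 709 lost. The planned rule that 50% of a peak overlap the region could give no other value, since a merged region holds its peaks whole. In its place, and chosen after seeing the data, a peak had to cover at least 50% of the region, which gave 2625 lost regions. With no scaling 1990 regions were higher and 8285 lower. With the mean of the peaks of a region they were 520 and 106, and the COL1A2 promoter turned from 0.63 to -0.24. With the replicate number as a block there were 4431 higher and 4066 lower regions. The main fit did not treat the numbers as pairs. The deviations of same-numbered libraries correlated at 0.0730, 0.0097 and 0.131, and those of differently numbered libraries at -0.105 to 0.0373. Replicates 1 and 3, but not replicate 2, correlated best with their own number in both sorts. Whether the numbers are pairs is not settled by these values. The block changed no call of a named region. With a promoter window of 2 kb the shares were 6.39% of gained, 8.33% of lost, 11.7% of higher and 7.24% of lower regions. In windows of 50 bases on each side AP-1 letters were in 24.1% of gained and 23.1% of higher regions and SOX letters in 13.3% of lost and 17.4% of lower regions. With nearest starts within 50 kb the median log2 expression ratio was 0.21 for gained, 0.20 for higher and -0.057 for lost regions. The Jaccard difference was 0.0321 with the 50000 highest peaks and 0.0174 to 0.0279 without 1 replicate number. For the 24 regions named as largest rises or falls or at EGFR, 334 of 344 alternative fits kept the call, 10 lost it and none turned it. Over all 171 named regions, start regions of listed genes included, 2544 alternative fits gave 78 lost calls, 15 calls that were not made otherwise and 1 that turned. With coding starts only, chosen after seeing the data, the call of ALOX5AP was the 1 call at a listed gene that was lost.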
